A study of Homo sapiens with 12 samples.

Results

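The miR-148 and miR-152 family was followed in 2 human embryonal carcinoma cell lines after knock-down of the transcription factor SOX2. Its members were chosen by name, as the assays of the deposited dCt table that are called miR-148 or miR-152, with any letter after the number and without the # sign that marks a minor strand. This gave 3 of 501 assays, hsa-miR-148a, hsa-miR-148b and hsa-miR-152, and all 3 were measured in all 12 samples. The family was put forward with its values in these samples in view, so its levels and differences over the 4 groups are a description and carry no p-value. The 4 groups were 2102Ep cells with an siRNA against SOX2 (2102Ep siSOX2), 2102Ep cells with a non-targeting siRNA (2102Ep NC), and the same pair in NTera-2 cells (NTera-2 siSOX2 and NTera-2 NC), with 3 samples labelled as biological replicates in each. The siRNA was given for 6 h, at 15 nM in 2102Ep cells and at 30 nM in NTera-2 cells, with a different Lipofectamine reagent in each line, so line, dose and reagent cannot be told apart, and the cells were then kept for 72 h. Both lines derive from human germ cell tumours. NTera-2 cells can form several cell types and are termed pluripotent, and 2102Ep cells are termed nullipotent. SOX2 mRNA is not among the assays, and the knock-down itself was not analysed here.

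MicroRNAs are short RNAs that guide Argonaute proteins to messenger RNAs, mainly through pairing of the seed near their 5′ end. MicroRNAs with the same seed can therefore share targets even when they are made from different genes. In human cells the miR-148 and miR-152 family is known for repressing the mRNAs of DNA methyltransferases, among them DNMT1 and DNMT3B, and miR-148a has been described as an inhibitor of the epithelial-to-mesenchymal transition.

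The mature sequences are shown because the family is defined by its shared seed and because the few bases that differ are what an assay must tell apart. They are given 5′ to 3′ as RefSeq lists them for GRCh38.p14, with the seed (bases 2 to 8) in capitals.
hsa-miR-148a: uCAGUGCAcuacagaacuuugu
hsa-miR-148b: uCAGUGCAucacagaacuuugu
hsa-miR-152: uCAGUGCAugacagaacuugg
All 3 members matched a RefSeq entry, named hsa-miR-148a-3p, hsa-miR-148b-3p and hsa-miR-152-3p there, and of 2545 mature entries in that table only these 3 held this seed. With positions counted from 1 at the 5′ end, miR-148a and miR-148b were equal in 20 of 22 bases and differed by C9U and U10C. Over the 21 bases they share in length, miR-148b and miR-152 were equal in 19 and differed by C10G and U20G. MiR-148a and miR-152 were equal in 18 of these 21 bases. Cross-detection between assays of such similar targets was not tested. The hairpins lie on separate chromosomes of GRCh38.p14. MIR148A is at chr7:25949919-25949986 on the minus strand, overlaps the long non-coding RNA gene LOC105375199, and has NFE2L3 as its nearest protein-coding gene at a distance of 202212 bases. MIR148B is at chr12:54337216-54337314 on the plus strand, inside COPZ1, which is on the same strand. MIR152 is at chr17:48037161-48037247 on the minus strand, inside COPZ2, which is on the same strand. COPZ1 and COPZ2 are paralogs that encode zeta subunits of the COPI vesicle coat. Whether the hairpins are exonic or intronic was not analysed here.

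A Ct is the PCR cycle at which the fluorescence of an assay passes a set level. Less RNA gives a higher Ct, and a step of 1 cycle corresponds to roughly 1 log2 unit. In the dCt, a constant per sample and card was subtracted from the raw Ct. The 3 members are on card A, where the constant matched the average of the miR-16 and U6 Ct within 5e-05 cycles. All log2 differences below are on the minus dCt scale, so a positive one means more RNA in the group named first. Between 420 and 451 of the assays were measured per sample, and replicates of a group correlated by 0.940 to 0.989 in dCt. All 8 embryonal carcinoma markers (miR-302a to miR-302d, miR-367, miR-371-3p, miR-372 and miR-373) were measured in every group. Their mean raw Ct ran between 16.2 and 21.0 in 2102Ep siSOX2, between 16.2 and 20.4 in 2102Ep NC, between 14.1 and 26.1 in NTera-2 siSOX2, and between 13.9 and 25.2 in NTera-2 NC. MiR-371-3p and miR-372 were the weak ones in NTera-2. Of the markers of other cells, miR-122 and miR-451 were not among the assays of the dCt table. MiR-133a and miR-223 were at a mean raw Ct between 22.9 and 26.4 in every group, miR-133a from only 2 samples in NTera-2 NC. The part of miR-133a and miR-223 in the members' values was not tested.

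After SOX2 knock-down in 2102Ep cells the family did not move as one. MiR-148a lay lower in siSOX2 cells than in NC cells, miR-152 lay higher, and the miR-148b values of siSOX2 and NC cells overlapped. In NTera-2 cells, none of the 3 members separated siSOX2 from NC cells. The log2 difference in 2102Ep, siSOX2 minus NC, was -1.86 ± 0.27 for miR-148a, -0.17 ± 0.28 for miR-148b and 1.29 ± 0.42 for miR-152 (SE of the limma fit, n = 3 each).

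MiR-148a, the member with the lowest Ct in both lines, had a dCt of 2.84, 3.27 and 3.68 in 2102Ep siSOX2 cells, against 1.77, 1.33 and 1.11 in 2102Ep NC cells. Every siSOX2 value was above every NC value, so the groups did not overlap and the miRNA was less abundant in siSOX2 cells. The mean dCt was 3.26 ± 0.42 in siSOX2 cells and 1.40 ± 0.34 in NC cells (SD, n = 3 each). If each cycle doubles the product, the difference is 3.63-fold lower in siSOX2 cells. Ranked from the lowest, miR-148a stood 11th of the 431 assays tested in 2102Ep.

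MiR-148b had a dCt of 6.63, 6.89 and 6.39 in 2102Ep siSOX2 cells, against 6.55, 6.66 and 6.20 in 2102Ep NC cells. The groups overlapped. The mean dCt was 6.64 ± 0.25 in siSOX2 cells and 6.47 ± 0.24 in NC cells (SD, n = 3 each), a gap smaller than either SD. Its log2 difference was below 0 with miR-16, U6, or the mean or median of the card as reference, but 0.18 ± 0.33 (SE) with RNU44 and RNU48.

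MiR-152 had a dCt of 7.56, 8.02 and 7.18 in 2102Ep siSOX2 cells, against 8.41, 8.68 and 9.55 in 2102Ep NC cells. Every siSOX2 value was below every NC value, so miR-152 was more abundant in siSOX2 cells, and NC replicate 3 lay farthest from the siSOX2 samples. The mean dCt was 7.59 ± 0.42 in siSOX2 cells and 8.88 ± 0.59 in NC cells (SD, n = 3 each). Under the same assumption of doubling per cycle, it was 2.45-fold higher in siSOX2 cells. It stood 24th from the highest of the 431 assays. Leaving out each 2102Ep sample in turn gave log2 differences between 0.96 and 1.53 for miR-152 and between -2.07 and -1.65 for miR-148a.

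Groups that do not overlap were common among all assays, so 2 of 3 members is a count to be read with its background. Of the 412 assays measured in all 6 samples of 2102Ep, 130 (31.6%) had siSOX2 and NC values that did not overlap, in either direction. Of the 445 such assays in NTera-2 cells, 129 (29.0%) did not overlap, and none of the 3 members was among them. Since the family was put forward with these values known, nothing is read from its count in 2102Ep.

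**Figure D1:**
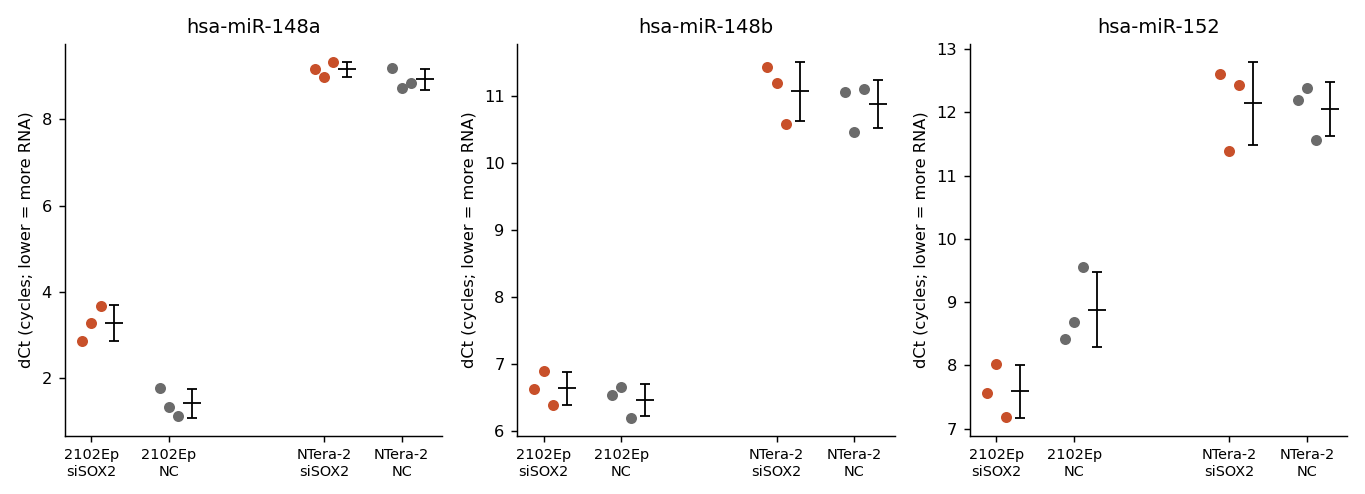
The 3 panels plot the dCt (cycles, where lower means more RNA) of miR-148a, miR-148b and miR-152 in each sample of the 4 groups, with siSOX2 in orange and NC in grey, and the group mean ± SD beside the points (n = 3). In 2102Ep cells the miR-148a values of siSOX2 lie above those of NC, the miR-152 values of siSOX2 lie below those of NC, and in NTera-2 cells the groups overlap in every panel.

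In NTera-2 cells miR-148a had a dCt of 9.16, 8.98 and 9.34 in siSOX2 cells, against 9.20, 8.74 and 8.85 in NC cells. The groups overlapped, with a log2 difference of -0.23 ± 0.27 (SE). MiR-148b had a dCt of 11.44, 11.19 and 10.58 in NTera-2 siSOX2 cells, against 11.06, 10.47 and 11.11 in NTera-2 NC cells. These overlapped as well, with a log2 difference of -0.19 ± 0.28 (SE). MiR-152 had a dCt of 12.60, 11.39 and 12.43 in NTera-2 siSOX2 cells, against 12.19, 12.39 and 11.57 in NTera-2 NC cells. The groups overlapped, and the log2 difference was -0.09 ± 0.42 (SE). The median log2 difference of all 451 assays tested in NTera-2, from both cards, was -0.27, and all 3 members lay close to it, on its upper side. On card A alone, with miR-16 as reference, the median of 256 assays was -0.015. There miR-148a lay below it at -0.050, while miR-148b at -0.013 and miR-152 at 0.089 lay above it. In 2102Ep the median of all assays was -0.0030.

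The plot of all assays shows where the members stand. The size of the difference between the lines, taken as the NTera-2 difference minus the 2102Ep difference, was 1.63 ± 0.38 for miR-148a, -0.02 ± 0.40 for miR-148b and -1.39 ± 0.59 for miR-152 (SE). The median of this quantity over the 384 assays that had it was -0.27.

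**Figure D2:**
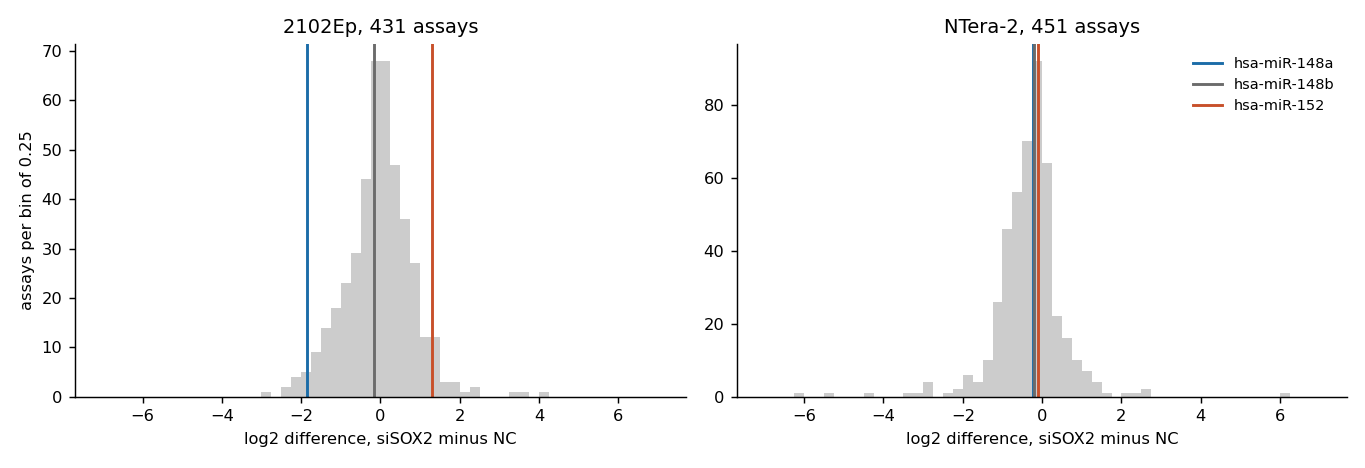
Histograms of the log2 difference, siSOX2 minus NC, of all assays tested in 2102Ep (431) and NTera-2 (451), in assays per bin, with vertical lines at the 3 members. In 2102Ep the lines of miR-148a (-1.86) and miR-152 (1.29) stand in opposite flanks with miR-148b (-0.17) near the centre, and in NTera-2 the 3 lines lie together between -0.23 and -0.09.

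The reference RNAs were compared because each log2 difference depends on them. In 2102Ep cells the mean Ct of miR-16 was 21.5 ± 0.35 in siSOX2 and 21.6 ± 0.24 in NC, and that of U6 was 14.90 ± 0.17 in siSOX2 and 14.89 ± 0.05 in NC (SD, n = 3 each). RNU44 was at 17.8 ± 0.17 in 2102Ep siSOX2 and 17.3 ± 0.23 in 2102Ep NC. With RNU44 and RNU48 as reference, the median of all assays in 2102Ep was 0.43, and the members moved with it. The log2 difference of miR-148a in 2102Ep was between -1.89 (miR-16 alone) and -1.51 (RNU44 and RNU48) over the 6 references, and that of miR-152 between 1.26 (miR-16 alone) and 1.65 (RNU44 and RNU48). Neither changed sign. In NTera-2 cells the 6 references gave values between -0.41 and -0.03 for miR-148a, between -0.38 and 0.01 for miR-148b and between -0.27 and 0.11 for miR-152.

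**Figure D3:**
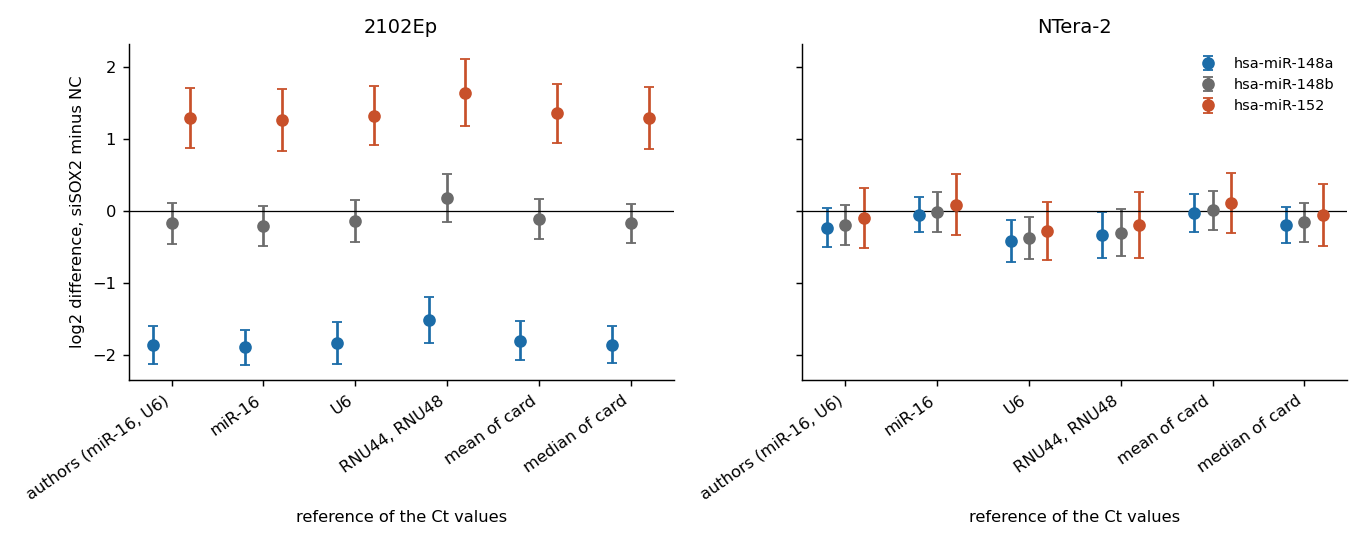
The log2 difference, siSOX2 minus NC, of each member (vertical axis) under 6 references of the Ct values (horizontal axis), for 2102Ep and NTera-2, with error bars of 1 SE of the limma fit. In 2102Ep miR-148a stays between -1.89 and -1.51 and miR-152 between 1.26 and 1.65, while in NTera-2 every member stays between -0.41 and 0.11.

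The members can also be compared without any reference RNA, since 2 assays of one card in one sample share the constant, which cancels. The change of such a ratio equals the log2 difference of its first member less that of its second. It thus restates the differences above and is not a further result. Assays may differ in efficiency, so the size of such a ratio is not a ratio of molecules, and only its difference between groups is used. The log2 ratio of miR-148a over miR-152 was 4.72, 4.75 and 3.50 in 2102Ep siSOX2 cells, against 6.64, 7.35 and 8.44 in 2102Ep NC cells. The groups were apart by more than the range within either, and the mean ratio differed by -3.15 ± 0.66 (SE), which is 8.91-fold lower in siSOX2 cells. In NTera-2 cells the same ratio was 3.44, 2.40 and 3.09 in siSOX2, against 2.99, 3.65 and 2.71 in NC. These overlapped, with a difference of -0.14 ± 0.41 (SE).

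The log2 ratio of miR-148a over miR-148b was 3.78, 3.63 and 2.71 in 2102Ep siSOX2 cells, against 4.78, 5.33 and 5.09 in 2102Ep NC cells. All siSOX2 values were below all NC values, and the means differed by -1.69 ± 0.37 (SE). The log2 ratio of miR-148b over miR-152 was 0.93, 1.13 and 0.79 in 2102Ep siSOX2 cells, against 1.87, 2.03 and 3.35 in 2102Ep NC cells. Here too the groups were apart, by -1.47 ± 0.48 (SE), with NC replicate 3 the most distant sample. In NTera-2 cells these ratios differed between siSOX2 and NC by -0.04 ± 0.37 and -0.10 ± 0.64 (SE), and both overlapped. The 3 ratios are built from the same 3 assays, so they do not count as separate results. How often the ratios of other pairs of assays do not overlap was not computed. The mean raw Ct of the 3 members spanned 4.32 cycles in 2102Ep siSOX2 cells, 7.48 cycles in 2102Ep NC cells, 2.98 cycles in NTera-2 siSOX2 cells and 3.12 cycles in NTera-2 NC cells.

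**Figure D4:**
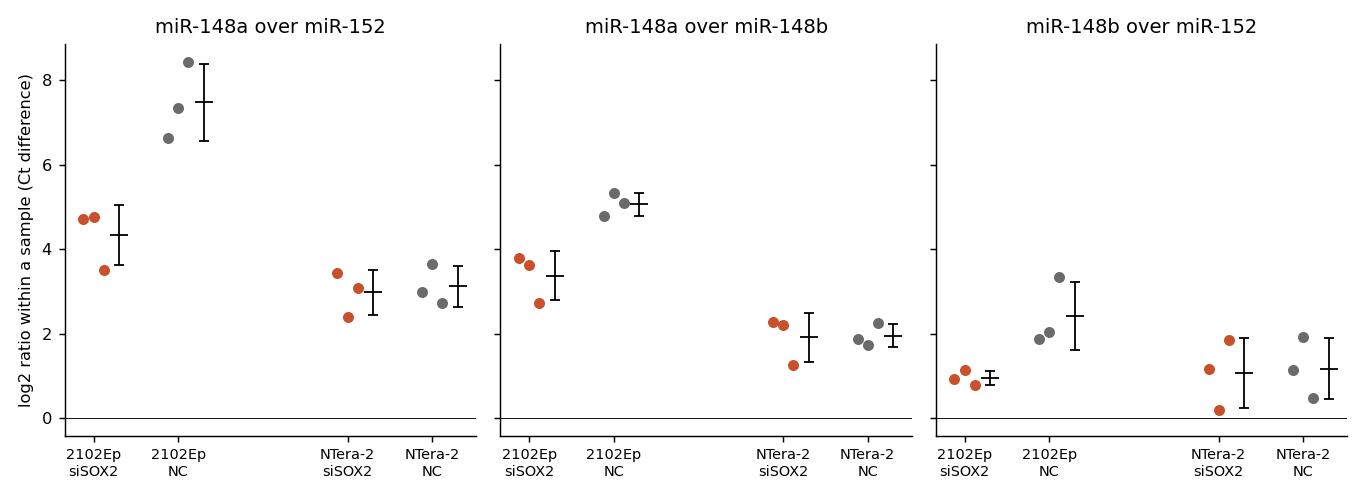
The log2 ratio of 2 members within each sample (vertical axis, the Ct of the second minus the Ct of the first) for the 3 pairs of members in the 4 groups, with siSOX2 in orange, NC in grey and the mean ± SD beside the points (n = 3). In 2102Ep the siSOX2 samples lie below the NC samples in all 3 panels, and in NTera-2 they overlap in all 3. The 3 panels use the same 3 assays, so they do not count as separate results.

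Between the lines, the reference RNAs themselves were far apart. The mean Ct of U6 on card A was 10.6 in NTera-2 siSOX2 and 14.9 in 2102Ep siSOX2, and 10.8 in NTera-2 NC and 14.9 in 2102Ep NC. The mean over card A was close to even, at 24.5 in NTera-2 siSOX2, 24.2 in 2102Ep siSOX2, 24.3 in NTera-2 NC and 24.2 in 2102Ep NC. The lines were therefore compared on raw Ct set against the mean of the 224 card A assays measured in all 12 samples, as a log2 level against the mean of the card.

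On this scale, miR-148a was at 0.85, 0.81 and 0.39 in NTera-2 siSOX2 cells, against 3.10, 2.69 and 2.46 in 2102Ep siSOX2 cells. It was at 0.51, 0.87 and 0.68 in NTera-2 NC cells, against 4.06, 4.83 and 4.83 in 2102Ep NC cells. No NTera-2 sample reached any 2102Ep sample. From the lowest, the group means were 0.68 ± 0.26 in NTera-2 siSOX2 cells, 0.69 ± 0.18 in NTera-2 NC cells, 2.75 ± 0.33 in 2102Ep siSOX2 cells and 4.57 ± 0.45 in 2102Ep NC cells (SD, n = 3 each). The NTera-2 groups were the only neighbours in this order not apart beyond their spread. The log2 difference, NTera-2 minus 2102Ep, was -2.07 ± 0.28 in siSOX2 cells and -3.89 ± 0.28 in NC cells (SE).

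MiR-148b was at -1.43, -1.39 and -0.86 in NTera-2 siSOX2 cells, against -0.68, -0.93 and -0.26 in 2102Ep siSOX2 cells, and these overlapped. In the NC samples it was at -1.35, -0.86 and -1.57 in NTera-2 cells, against -0.72, -0.50 and -0.26 in 2102Ep cells. The NC groups did not overlap, by a narrow margin. The log2 difference was -0.60 ± 0.28 in siSOX2 cells and -0.77 ± 0.28 in NC cells (SE). MiR-152 was at -2.60, -1.59 and -2.70 in NTera-2 siSOX2 cells, against -1.62, -2.06 and -1.05 in 2102Ep siSOX2 cells. It was at -2.48, -2.78 and -2.03 in NTera-2 NC cells, against -2.58, -2.52 and -3.61 in 2102Ep NC cells. The lines overlapped in both arms, with log2 differences of -0.72 ± 0.42 in siSOX2 cells and 0.47 ± 0.42 in NC cells (SE).

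In siSOX2 samples, 1 of 3 members did not overlap between the lines, and 2 of 3 did not in NC samples. Lines without overlap were the rule among all assays, with 296 of 374 (79.1%) in siSOX2 samples and 295 of 379 (77.8%) in NC samples. Under the deposited dCt the differences for miR-148a, miR-148b and miR-152 were -5.90, -4.43 and -4.55 in siSOX2 cells and -7.53, -4.41 and -3.17 in NC cells. The median of all assays between the NC groups was -5.35 under the deposited dCt and 0.17 on the card mean scale. The direction between lines was the same under all 4 references for miR-148a and miR-148b. With the median of the card, however, miR-148b was less than its SE from 0. It was at -0.15 ± 0.29 in siSOX2 cells and -0.25 ± 0.29 in NC cells (SE). For miR-152 in NC cells the difference was above 0 with the mean or median of the card. It was below 0 with RNU44 and RNU48 (-1.05) or the deposited dCt.

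**Figure D5:**
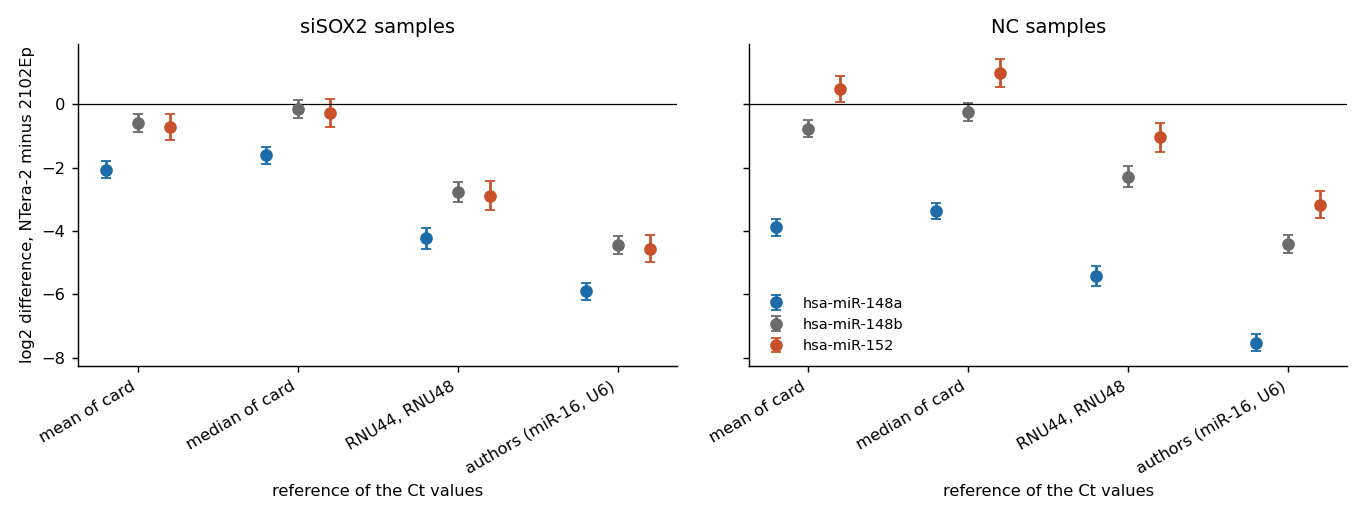
The log2 difference, NTera-2 minus 2102Ep, of each member (vertical axis) under 4 references of the Ct values (horizontal axis), in siSOX2 and in NC samples, with error bars of 1 SE of the limma fit. MiR-148a is the lowest of the 3 members under every reference, from -7.53 under the deposited dCt to -1.62 under the median of the card, and every member is lower under the deposited dCt than under the card mean.

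The minor strand of 1 member's hairpin was also assayed. This was hsa-miR-148b#, the 5′ strand of MIR148B, on card B. It is shown here since its seed, again in capitals, is not that of the family.
hsa-miR-148b#: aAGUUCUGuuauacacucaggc
Its dCt was 4.66, 4.83 and 4.36 in 2102Ep siSOX2 cells, against 4.38, 4.84 and 4.25 in 2102Ep NC cells, and it was 11.64, 11.99 and 11.37 in NTera-2 siSOX2 cells, against 11.96, 11.83 and 11.67 in NTera-2 NC cells. The groups overlapped in both lines. Its log2 difference was -0.12 ± 0.24 in 2102Ep cells, where that of its major strand miR-148b was -0.17 ± 0.28, and 0.15 ± 0.24 in NTera-2 cells (SE). With the mean of card B as reference the NTera-2 difference was 0.66 ± 0.23, and on the level against the card mean the siSOX2 values (-3.42, -3.55 and -3.32) did not overlap the NC values (-4.30, -3.93 and -4.03). The share of all assays without overlap on that scale was not computed, so nothing is read from this.

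The miRNAs with a pattern most like each member were found as the 3 assays of card A with the smallest root mean square difference of minus dCt over the 12 samples, each assay centred on its own mean, among 223 assays. For miR-148a these were miR-519e (0.41), miR-518b (0.44) and miR-517a (0.44), all from the primate-specific cluster on chromosome 19. Their log2 differences in 2102Ep, siSOX2 minus NC, were -1.48, -1.04 and -1.38, from the same values that picked them. For miR-148b they were miR-370 (0.33), miR-340 (0.34) and miR-125b (0.41), and for miR-152 they were miR-652 (0.47), miR-27a (0.53) and miR-27b (0.53). Among the members, the root mean square difference was 1.89 for miR-148a and miR-152, 1.34 for miR-148a and miR-148b, and 0.82 for miR-148b and miR-152. The nearest assays were picked as the closest of 223, so they are closer than set pairs by selection. The difference of a typical pair of assays was not computed. Much of each pattern over 12 samples is the step between the lines. Over the 6 samples of 2102Ep alone, the 3 nearest assays were miR-512-5p, miR-210 and miR-519e for miR-148a, of which 1 of 3 was on its list over 12 samples. They were miR-106a, miR-29c and miR-17 for miR-148b (0 of 3 shared) and miR-301b, miR-424 and miR-27b for miR-152 (1 of 3 shared). Over the 6 samples of NTera-2, none of the nearest assays of any member was on its list over 12 samples.

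Other miRNAs that have been reported to target DNA methyltransferase mRNAs in human cells were set beside the family, namely miR-29a, miR-29b, miR-29c, miR-126, miR-143, miR-185 and miR-342-3p. In 2102Ep cells 0 of 7 passed an adjusted p of 0.05 in limma, in either direction, and 2 had an unadjusted p under 0.05. Of all 431 assays tested there, 61 (14.2%) passed the adjusted threshold, and 108 had an unadjusted p under 0.05 (limma). The 2 of the 7 were miR-143 and miR-185, a count to be read beside that background. MiR-143 had a dCt of 4.11 and 4.72 in siSOX2 replicates 1 and 3 and no measured value in replicate 2, against 8.45, 6.15 and 9.11 in NC cells. All measured siSOX2 values were below all NC values, and the log2 difference was 3.48 ± 0.93 (SE, adjusted p = 0.0822, limma). MiR-185 had a dCt of 4.73, 4.59 and 4.38 in 2102Ep siSOX2 cells, against 5.55, 4.84 and 5.41 in 2102Ep NC cells. Its groups did not overlap either, with a log2 difference of 0.70 ± 0.24 (SE, adjusted p = 0.0839, limma). Without 2102Ep NC replicate 2, both passed the threshold, at a log2 difference of 4.36 (adjusted p = 0.0123, limma) for miR-143 and 0.92 (adjusted p = 0.0356, limma) for miR-185. Of all 428 assays tested in that setting, 53 passed. Without 2102Ep NC replicate 1 the adjusted p (limma) was 0.189 for miR-143 and 0.224 for miR-185. Without 2102Ep NC replicate 3 it was 0.166 and 0.237 (limma), so neither passed in these 2 settings. The median log2 difference of the 7 was 0.38, beside -0.0030 for all assays.

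In NTera-2 cells miR-143 was not measured in any sample, and 0 of the 6 others passed the adjusted threshold, whereas 25 of all 451 assays (5.54%) did. With the replicate number as a block, 7 of the 451 assays and 0 of these 6 miRNAs passed. In the main fit, 1 of the 6 had an unadjusted p under 0.05 (limma), and so did 99 of all 451 assays. The 1 was miR-126, with a dCt of 7.13, 6.96 and 6.87 in NTera-2 siSOX2 cells, against 6.58, 6.52 and 6.23 in NTera-2 NC cells. It did not overlap between the groups and had a log2 difference of -0.54 ± 0.19 (SE, adjusted p = 0.121, limma). The median of the 6 was -0.15, beside -0.27 for all assays. The miR-29 miRNAs, which share a seed among themselves and are known in human cells for targeting DNMT3A and DNMT3B, had log2 differences of 0.38 ± 0.40, 0.60 ± 0.38 and -0.14 ± 0.21 in 2102Ep for miR-29a, miR-29b and miR-29c (SE), and of -0.38 ± 0.40, -0.13 ± 0.38 and -0.17 ± 0.21 in NTera-2.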

How the data were processed

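The authors ran TaqMan card A and card B on 12 samples and deposited raw Ct and dCt, both on the log2 scale. The third deposited table, of their own fold changes and p-values, was not used. The members and lists were chosen with earlier results of these data known. Values at a Ct of 40 counted as not measured. From row 106 on, the raw Ct of 2102Ep siSOX2 replicate 3 were displaced: as deposited 0.592% of the values there gave the constant, and 99.7% of 339 gave it after a shift by 1 measured row, so dCt plus the constant was used for raw Ct, and the control RNAs of that sample were read from the row above. The members lie above that row. Minus dCt of assays measured in 2 or more of the 3 samples of each arm was fitted with limma 3.58.1, run in R 4.3.3 (4 group means, 12 samples, eBayes, two-sided, Benjamini-Hochberg within a comparison, adjusted p of 0.05). Standard errors of the ratios between members come from the 2 groups' variances. The script was tested on simulated data. The named miRNAs were the members, the minor strand, the DNA methyltransferase list, the 3 nearest patterns, the reference RNAs and the markers. Alternatives were other reference RNAs, the mean or median of the card, each sample left out, a replicate block, the 6 samples of a line alone, complete assays only and a mean raw Ct of 35 or less. Those for the difference between the lines' responses and for the minor strand were chosen after seeing the data. Replicate numbers were checked as pairs by the correlation of deviations from the group means between siSOX2 and NC samples of the same number. This was 0.118, 0.265 and 0.159 in NTera-2, and 0.157, 0.168 and 0.0635 in 2102Ep. Between different numbers it ran from -0.178 to 0.0538 in NTera-2 and from -0.216 to 0.0378 in 2102Ep. In both lines each value of the same number was above all values of different numbers. The numbers may thus pair the samples in either line. The main fit has no block in either line, and the fit with the block is an alternative. No 2 replicates held identical values (0 pairs). Precision is set by the number of samples, as PCR after pre-amplification counts no molecules. Labels do not say that replicates were separate cultures beyond calling them biological.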

Additional observations from a re-analysis of the deposited data

How the results depend on the processing

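In 2102Ep cells, the log2 difference of miR-148a stayed below 0 and that of miR-152 above 0 under every reference and with each sample left out. As the dCt groups of both do not overlap there, leaving out a sample could not have changed the sign, only the size. Of the family's knock-down differences, those that moved by more than the spread between replicates had RNU44 and RNU48 as reference, where the 2102Ep value of miR-148b was 0.18, and the NTera-2 minus 2102Ep difference of the responses was 1.17 for miR-148a and -0.48 for miR-148b. The cause was not tested. With the replicate number as a block, the log2 differences were unchanged by construction, and the SE, shared by both lines, was 0.31 for miR-148a, 0.27 for miR-148b and 0.48 for miR-152. The log2 differences under the block were -1.86, -0.17 and 1.29 in 2102Ep and -0.23, -0.19 and -0.09 in NTera-2 for miR-148a, miR-148b and miR-152. Under the block, 1 of the 7 DNA methyltransferase miRNAs passed the threshold in 2102Ep (miR-143, log2 difference 4.36, adjusted p = 0.0223, limma), which leaves out the pair with no measured value, and 0 did in NTera-2. Leaving out each sample in turn gave between 0 and 2 in 2102Ep. Neither changed a call of that list in NTera-2.

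Between the lines (NTera-2 minus 2102Ep), the median of the card gave -1.62 and -0.15 in siSOX2 cells for miR-148a and miR-148b, and -3.37, -0.25 and 0.99 in NC cells for miR-148a, miR-148b and miR-152. RNU44 and RNU48 gave -4.24, -2.77 and -2.89 in siSOX2 cells, and -5.41, -2.29 and -1.05 in NC cells. The deposited dCt gave -5.90, -4.43 and -4.55 in siSOX2 cells, and -7.53, -4.41 and -3.17 in NC cells. The minor strand miR-148b# turned its sign, at 1.83 in siSOX2 and 1.02 in NC cells with the card mean, 1.24 and 0.62 with the median, -1.53 and -1.31 with RNU44 and RNU48, and -7.05 and -7.32 with the deposited dCt. Its siSOX2 minus NC difference was 0.43 in 2102Ep with RNU44 and RNU48, and 0.66 and 0.67 in NTera-2 with the mean and the median of the card, and its difference between the lines' responses was -0.22, 0.79 and 0.67 under these 3 references.

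Over all assays in NTera-2, the 25 calls became 7 with the replicate block, 11 with the 6 samples of the line alone, 15 with the mean of the card, 13 with RNU44 and RNU48, 10 without NTera-2 NC replicate 3, and 15 and 14 without NTera-2 siSOX2 replicates 1 and 2. On card A alone (256 assays) they were 47 with U6 and 15 with miR-16. In 2102Ep the 61 calls became 48 with the block, 40 without siSOX2 replicate 1, and 39 and 37 without NC replicates 1 and 3.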
